A study of Mus musculus with 14 samples.

Results

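All arrays that lack KLF1 were compared here with all wild-type arrays, to find the genes that changed in common when KLF1 was missing. Members were chosen by genotype label alone: 6 of the 14 arrays, 3 labelled KLF1-/- (replicates 5, 6 and 8) and 3 labelled KLF1-/- KLF2-/- (replicates 13, 14 and 15), formed the KLF1-deficient pool, and the other 8 were wild type (replicates 1 to 4 and 9 to 12). Every array measured RNA of erythroid precursors cut by laser from 8 µm sections of embryonic day 9.5 mouse yolk sacs, and all samples carried the strain label FVB/N. Dams were KLF1+/- or KLF1+/- KLF2+/-, and each embryo was typed from its tail; the labels name no Cre or transgene. Each replicate pooled 2 to 4 yolk sacs from 2 litters, so no value belongs to a single embryo. Whether replicates shared a litter was not stated, and p-values measure the spread between these pooled samples. The KLF1-/- arrays were numbered together with wild-type replicates 1 to 4 (titles 1 to 8), and the KLF1-/- KLF2-/- arrays with wild-type replicates 9 to 12 (titles 9 to 15). This title run entered the model as a block, although the labels do not call it a batch.

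KLF1, the erythroid Krüppel-like factor, is a zinc finger protein that binds CACCC boxes in the promoters and enhancers of red cell genes, often beside GATA1. It is best known as an activator of adult beta globin, of membrane and blood group proteins, of heme and glycolytic enzymes and of cell cycle regulators, and it holds back megakaryocyte genes in the progenitor that red cells and platelets share. KLF2 is a close relative that acts in endothelium and in primitive erythroid cells. Mutations of human KLF1 give the In(Lu) blood group type, in which surface antigens of red cells are weak. The first red cells of the embryo arise in yolk sac blood islands next to endothelium, mesenchyme and visceral endoderm.

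Erythroid markers were bright on every array, and their levels overlapped between the pools. The mean log2 level of 7 erythroid markers was 11.60 to 12.54 on wild-type arrays and 11.55 to 12.39 on KLF1-deficient arrays. Transcripts of neighbouring cells were present on all arrays: 6 visceral endoderm markers averaged 10.89 to 12.64 in wild type and 11.58 to 12.32 in mutants, and 6 mesenchyme markers 9.83 to 11.11 and 10.06 to 11.03. Array medians lay between 6.55 and 6.66, interquartile ranges between 2.31 and 2.89 (wild type) or 2.38 and 3.12 (mutant), and the Gapdh 3′ minus 5′ control signal between 3.90 and 5.28 or 3.94 and 5.20, so these measures of array quality overlapped. Klf1 itself was 10.05 to 11.82 (median 10.48) in wild type and 8.56 to 9.79 (median 9.41) in the mutants, and the pools did not overlap. Its log2 change was −1.37 (SE 0.265, adjusted p = 0.0662), just short of the threshold. Klf2 gave 0.21 (adjusted p = 1). How these probe sets sit relative to the targeted exons is not given, so neither gene tests the labels.

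In the KLF1-deficient pool 14 genes were lower and 6 were higher than in wild type. The lower genes were Hbb-b2, Asb17, Ermap, Adcy7, Kcnn4, Icam4, Tfrc, Pklr, Plek2, Mgst3, Dmtn, Pvt1, Dhh and Mst1, and the higher genes Btn1a1, Fermt3, Tpd52l1, Nrip3, Abhd4 and Spry1. A gene was called at a Benjamini-Hochberg adjusted p under 0.05 in limma, and the 20 calls were 0.161% of the 12393 genes tested, 0.113% lower and 0.0484% higher. The unadjusted p was under 0.05 for 133 lower genes (1.07%) and 285 higher genes (2.3%), where chance gives 620 in all, and 6413 genes (51.7%) had a change above 0. All 6 mutant arrays lay below all 8 wild-type arrays for 16 genes (0.129%) and above them for 10 (0.0807%), and 14 of the 20 called genes were among these 26, 11 lower and 3 higher. The split between directions moved with the scaling: quantile normalization gave 19 lower and 15 higher calls, and scaling to 1 median and interquartile range 20 and 13, in both cases with all 20 genes among them. Since the arrays measure captured tissue in bulk, fewer cells of a type and less RNA per cell cannot be told apart for any gene.

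**Figure D1:**
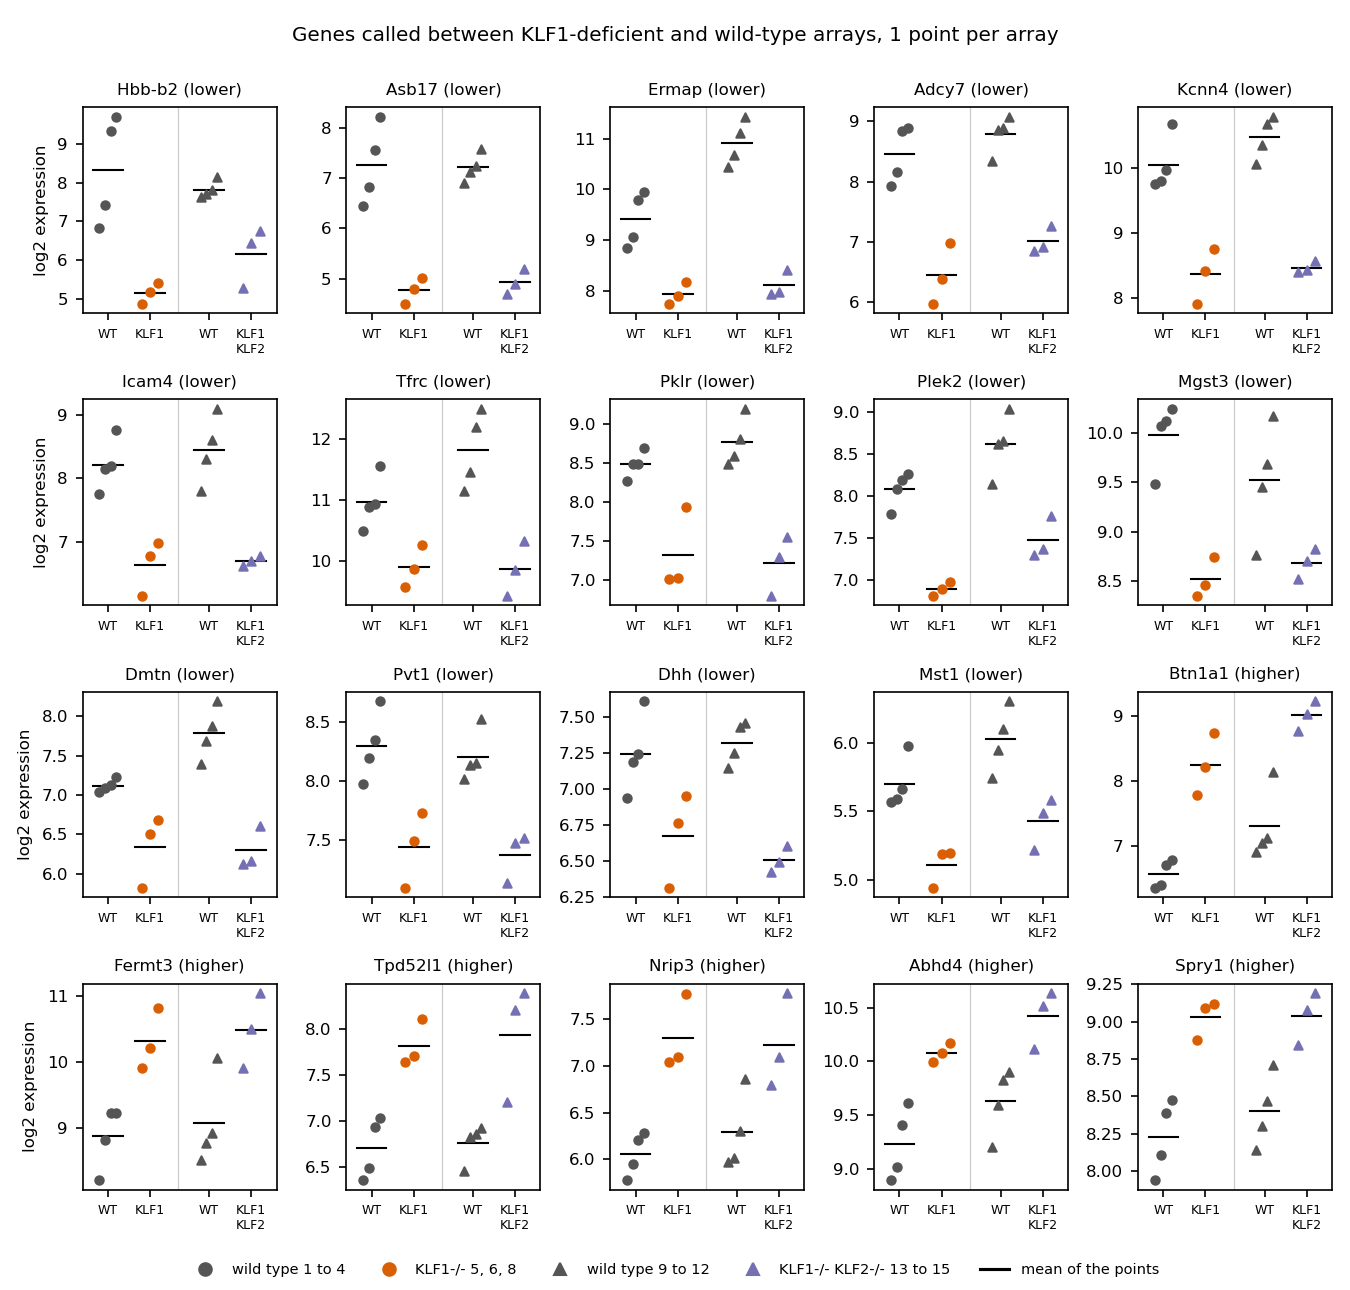
Log2 expression of the 20 called genes on each array, in 4 columns per panel: wild type 1 to 4, KLF1-/- 5, 6 and 8, wild type 9 to 12, and KLF1-/- KLF2-/- 13 to 15, with black lines at the mean of each column. The mutant points lie to one side of the wild-type points of their own title run in 16 panels, and Mgst3, Dhh, Fermt3 and Nrip3 are the panels where they meet.

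Transcripts of the surface proteins Kcnn4, Icam4 and Ermap were lower in both mutant genotypes. Kcnn4 codes for the Gardos potassium channel, which opens on calcium entry and lets red cells lose salt and water. It measured 9.76 to 10.79 (median 10.21) in wild type and 7.91 to 8.76 (median 8.43) in the mutants, with a gap of a full log2 unit between the pools. The log2 change was −1.85 (SE 0.176, 3.61-fold, adjusted p = 0.000217), made of −1.69 in titles 1 to 8 and −2.01 in titles 9 to 15. Icam4, an adhesion protein that carries the LW blood group antigens, was 7.75 to 9.09 (median 8.25) in wild type and 6.15 to 6.98 (median 6.74) in mutants. It changed by −1.66 (SE 0.2, 3.16-fold, adjusted p = 0.0014), by run −1.58 and −1.75. Ermap, an erythroid member of the butyrophilin-like family that carries the Scianna antigens, fell from 8.84 to 11.43 (median 10.20) to 7.75 to 8.42 (median 7.96), a change of −2.14 (SE 0.263, 4.4-fold, adjusted p = 0.00152; by run −1.47 and −2.81). These 3 genes had no overlap between the pools. Icam4 and Ermap were the called members of the blood group and surface glycoprotein list (20 of 22 members measured, 2 lower, 0 higher, median −0.06), against 0.161% called and a median of 0.0049 over all genes. Kcnn4 was the called member of the ion, water and glucose transport list (16 of 22 measured, 1 lower, 0 higher, median −0.04). A dimmer second probe set of Kcnn4 gave −0.35.

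Promoters of 6 lower genes are shown so that the letters KLF1 is known to bind can be looked for in them. Sequences are from RefSeq (GRCm38.p6), 250 bases before to 50 bases after the transcript start, written 5′ to 3′ in the direction of the gene. Capitals mark CCNCNCCCN, the loose KLF1 type CACCC box, and the GATA factor motif AGATAA, each read on either strand.
Kcnn4 (chr7:24370013-24370312, plus strand): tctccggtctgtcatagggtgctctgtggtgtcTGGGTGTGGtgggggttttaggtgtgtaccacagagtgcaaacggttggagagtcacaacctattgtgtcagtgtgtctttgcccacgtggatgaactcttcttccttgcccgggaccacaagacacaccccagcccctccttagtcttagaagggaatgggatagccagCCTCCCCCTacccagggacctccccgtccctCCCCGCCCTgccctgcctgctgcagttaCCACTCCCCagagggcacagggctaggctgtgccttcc
Icam4 (chr9:21029182-21029481, plus strand): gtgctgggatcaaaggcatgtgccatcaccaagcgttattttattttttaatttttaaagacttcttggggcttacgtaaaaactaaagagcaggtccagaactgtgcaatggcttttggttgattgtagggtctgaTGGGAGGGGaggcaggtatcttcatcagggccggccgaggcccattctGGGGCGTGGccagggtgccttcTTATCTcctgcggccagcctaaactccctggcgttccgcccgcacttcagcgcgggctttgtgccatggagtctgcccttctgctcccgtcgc
Plek2 (chr12:78906889-78907188, minus strand): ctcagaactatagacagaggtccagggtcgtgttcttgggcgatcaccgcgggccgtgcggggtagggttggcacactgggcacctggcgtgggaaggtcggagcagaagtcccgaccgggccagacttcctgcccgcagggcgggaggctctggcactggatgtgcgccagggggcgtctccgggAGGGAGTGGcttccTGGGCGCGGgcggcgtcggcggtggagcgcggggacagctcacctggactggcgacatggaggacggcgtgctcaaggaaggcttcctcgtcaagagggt
Pklr (chr3:89135892-89136191, plus strand): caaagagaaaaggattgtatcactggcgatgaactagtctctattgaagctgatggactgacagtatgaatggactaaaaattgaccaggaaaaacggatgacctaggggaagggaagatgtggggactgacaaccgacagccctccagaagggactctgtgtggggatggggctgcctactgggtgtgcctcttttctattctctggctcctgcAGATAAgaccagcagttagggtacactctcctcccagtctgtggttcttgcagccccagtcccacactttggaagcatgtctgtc
Mst1 (chr9:108080186-108080485, plus strand): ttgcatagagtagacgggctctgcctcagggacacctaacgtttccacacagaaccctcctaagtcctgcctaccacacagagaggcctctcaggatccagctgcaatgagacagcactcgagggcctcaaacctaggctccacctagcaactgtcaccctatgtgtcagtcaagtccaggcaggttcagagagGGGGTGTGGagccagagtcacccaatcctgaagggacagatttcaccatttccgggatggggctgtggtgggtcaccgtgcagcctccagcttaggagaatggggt
Ermap (chr4:119189946-119190245, minus strand): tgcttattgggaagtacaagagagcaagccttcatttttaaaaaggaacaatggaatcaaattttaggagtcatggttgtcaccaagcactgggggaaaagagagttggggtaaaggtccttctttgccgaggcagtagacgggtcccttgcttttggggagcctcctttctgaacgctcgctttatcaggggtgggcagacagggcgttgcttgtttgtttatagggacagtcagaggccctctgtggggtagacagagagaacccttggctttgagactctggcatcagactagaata
The table held promoters for 15 of the 20 called genes. CCNCNCCCN was in 10 of 15 promoters of 11 lower genes (66.7%) and in 4 of 5 promoters of 4 higher genes (80.0%), beside 49.4% of all 32851 promoters and 65.0% of the 12566 promoters of tested genes. The stricter CCACACCC, which lies inside some CCNCNCCCN matches, was in 2 of 15 (13.3%; Kcnn4 and Mst1) and 0 of 5, beside 3.56% and 3.88%. AGATAA was in 2 of 15 (13.3%; Icam4 and Pklr) and 0 of 5, beside 11.2% and 7.83%. In Icam4 a CCNCNCCCN match at bases −65 to −57 and AGATAA at −43 to −38 lay close together, on the minus strand. The Kcnn4 window held 4 CCNCNCCCN matches from −217 to 20. The Ermap window held none of the motifs, which says only that these letters are not in these bases. A match is a description of letters and not a binding site, and several genes have more than 1 window, some of which share bases. The windows shown hold every lower-gene match to CCACACCC and AGATAA, so they do not stand for the lower genes as a set. Asb17 and another Pklr window, neither shown, held none of the motifs.

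Of the membrane skeleton, Plek2 and Dmtn fell. Plek2, a pleckstrin family protein that links membrane lipids to actin, was 7.78 to 9.03 (median 8.23) in wild type and 6.81 to 7.76 (median 7.13) in mutants, so the lowest wild-type and highest mutant arrays were almost level. Each run separated its own pools cleanly, with changes of −1.19 and −1.14, and the pooled change was −1.16 (SE 0.132, adjusted p = 0.000806). Dmtn codes for dematin, which bundles actin at the junctions of the skeleton, and it went from 7.04 to 8.19 (median 7.31) to 5.82 to 6.68 (median 6.33). Its change was −1.13 (SE 0.175, 2.19-fold, adjusted p = 0.0167), by run −0.78 and −1.49. The list of membrane and skeleton genes held 18 measured of 21 members, 2 lower and 0 higher beside 0.113% and 0.0484% of all genes, with 10 above 0 and a median of 0.05. Values that did not pass included beta-adducin, Add2, whose arrays did not overlap (7.33 to 7.59 against 6.86 to 7.26, change −0.35, adjusted p = 0.32), and the anion exchanger Slc4a1 (−0.90, adjusted p = 0.337). Tmcc2, a transmembrane coiled-coil protein, stood on the other side (0.76, adjusted p = 0.337).

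Of the metabolic genes, Pklr and the iron importer Tfrc fell. Pklr, the pyruvate kinase of the last step of glycolysis in red cells and liver, was 8.26 to 9.19 (median 8.54) in wild type and 6.80 to 7.94 (median 7.16) in mutants. The pools did not overlap, and the change was −1.36 (SE 0.177, 2.56-fold, adjusted p = 0.00273; by run −1.16 and −1.56). Its 2 dimmer probe sets gave −0.37 and −0.19. It was the called member of the glycolysis and pentose phosphate list, in which 11 of 14 measured genes (of 18) lay above 0 and the median was 0.13. Over all genes 0.161% were called, 51.7% lay above 0 and the median was 0.0049. The upstream enzymes Pfkm, phosphofructokinase, and Aldoa, aldolase, gave 0.33 (adjusted p = 0.439) and 0.45 (adjusted p = 0.823). Mgst3, a microsomal glutathione transferase, was lower as well (8.76 to 10.24, median 9.88, against 8.35 to 8.83, median 8.61; change −1.15, SE 0.202, adjusted p = 0.0369; by run −1.46 and −0.83). The pools of Mgst3 met at 1 point: wild-type replicate 12, at 8.76, lay below KLF1-/- KLF2-/- replicate 14 of its own run, at 8.83. Mgst3 was not called when the mean of all probe sets of a gene was used, so its call rests on the brightest probe set.

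Tfrc, the transferrin receptor that brings iron into erythroid cells, was 10.50 to 12.50 (median 11.31) in wild type and 9.43 to 10.32 (median 9.86) in mutants, with no overlap. It changed by −1.51 (SE 0.256, 2.85-fold, adjusted p = 0.031), −1.07 in titles 1 to 8 and −1.96 in titles 9 to 15. Other measurements of the same transcript were smaller: 2 dimmer probe sets gave −0.79 and −0.23, and the array's 3 Tfrc control probe sets −0.31, −0.01 and −0.11, all 3 with overlapping pools. Tfrc was not called when the mean of all probe sets of a gene was used, nor with a random run block. In the iron list (16 of 18 measured, 1 lower, 0 higher, median 0.09) the mitochondrial iron importer Slc25a37 gave −1.18 (10.31 to 12.60 against 9.67 to 11.07, adjusted p = 0.159). In the heme list 0 of 18 measured genes (of 20) were called in limma, 9 lay above 0, the median was −0.03, and 3 were lower and 1 higher at an unadjusted p under 0.05. Alad and Blvrb, enzymes of heme building and of bilirubin making, had the smallest p there (−1.09, adjusted p = 0.734, and −0.74, adjusted p = 1). Beside the iron and heme lists, 0.113% of all genes were called lower and 0.0484% higher, and 51.7% lay above 0. At an unadjusted p under 0.05, 1.07% of all genes were lower and 2.3% higher.

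Hbb-b2, an adult beta globin gene, had the largest change of the called genes. It was 6.83 to 9.71 (median 7.76) in wild type and 4.87 to 6.76 (median 5.34) in mutants, and the pools missed each other by little. The change was −2.42 (SE 0.44, 95% interval −3.36 to −1.48, adjusted p = 0.0439), by run −3.17 and −1.67. Adult beta globins are near-identical copies, and the probe set is of the type whose probes can bind other transcripts, so the signal cannot be given to Hbb-b2 alone. A second Hbb-b2 probe set gave −0.43. Hbb-b2 was not called when the mean of all probe sets of a gene was used, nor with the Gapdh covariate. The embryonic globins Hbb-y, Hbb-bh1 and Hba-x gave −0.0011, 0.001 and 0.03 (adjusted p = 1 each). The Hbb-y and Hbb-bh1 probe sets were among the brightest on the arrays. The highest wild-type value of Hbb-bh1, 14.71, was also the maximum of its array. Whether signals so near the top of the scale could still show a fall was not tested, so these values do not show that embryonic globin RNA was unchanged. The globin list had 1 lower and 0 higher gene of 6 measured (of 8), beside 0.113% and 0.0484% of all genes. Its members Hbb-b1 and the globin chaperone Ahsp had no probe set paired with them alone, so they enter no count. A probe set shared by several adult beta globin genes, Hbb-b1 among them, gave −2.06. It read 11.20 to 12.43 in wild type and 8.83 to 11.08 in mutants (limma adjusted p = 0.0404 over every probe set).

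Asb17 and Adcy7 stood beside Kcnn4 as the genes with the smallest p. Asb17 belongs to the ankyrin repeat and SOCS box family and is known mainly from the testis. Its 1 probe set read 6.46 to 8.23 (median 7.18) in wild type and 4.50 to 5.20 (median 4.84) in mutants, the widest gap between pools of any called gene. The change was −2.39 (SE 0.228, adjusted p = 0.000217), −2.50 and −2.28 by run. The deposited values carry no detection call, so whether Asb17 was above background in the mutants is not known, and its change is given as a difference of deposited log2 values with no fold. The same holds for Hbb-b2 and Mst1, whose lowest mutant arrays read 4.87 and 4.94. Adcy7, an adenylyl cyclase that makes cyclic AMP, was 7.92 to 9.08 (median 8.85) in wild type and 5.97 to 7.27 (median 6.89) in mutants. It changed by −1.89 (SE 0.194, adjusted p = 0.00037), by run −2.004 and −1.78, with no overlap. Its probe set is of a type that can be shared with related transcripts, and 2 dimmer ones gave −0.67 and −0.03.

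The ligand genes Dhh and Mst1 fell by small amounts. Dhh, Desert hedgehog, was 6.94 to 7.61 (median 7.25) in wild type and 6.31 to 6.95 (median 6.55) in mutants, meeting at 6.95 (KLF1-/- replicate 8) over 6.94 (wild-type replicate 2), with a change of −0.69 (SE 0.124, adjusted p = 0.0439; by run −0.57 and −0.81). Mst1, the macrophage-stimulating protein, changed by −0.59 (SE 0.108, adjusted p = 0.0441; −0.59 in each run), and its mutant arrays (4.94 to 5.58) lay below the wild type of their own run although the pools overlapped (wild type 5.57 to 6.30). Dhh was not called when the mean of all probe sets of a gene was used, nor with equal run weights or the Gapdh covariate. Mst1 was not called without a run block, with a random block, with equal run weights or with the Gapdh covariate. The non-coding RNA gene Pvt1, a neighbour of Myc, was 7.98 to 8.68 (median 8.18) in wild type and 7.10 to 7.73 (median 7.49) in mutants. Pvt1 changed by −0.85 (SE 0.134, adjusted p = 0.0171), by run −0.86 and −0.83, and 2 dimmer probe sets gave −0.17 and −0.12. With the mean of all probe sets of a gene Pvt1 was not called. Myc itself gave −0.67 (SE 0.196, adjusted p = 0.501), with wild type at 6.78 to 7.88 (median 7.42) and mutants at 6.26 to 7.37 (median 6.65), so the pools overlapped. Of the Myc network list 26 of 26 were measured, 1 was lower (Tfrc) and 0 higher, 10 lay above 0 and the median was −0.04. Over all genes 0.113% were called lower and 0.0484% higher, and 51.7% lay above 0.

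Among the higher genes, Btn1a1 rose most. Btn1a1, the butyrophilin of milk fat globules, was 6.36 to 8.14 (median 6.85) in wild type and 7.78 to 9.22 (median 8.75) in mutants. The pools overlapped through wild-type replicate 9 at 8.14, while each run separated its own arrays. Its change was 1.69 (SE 0.192, 3.22-fold, adjusted p = 0.000806), 1.67 and 1.70 by run, and 2 dim probe sets gave 0.09 and 0.25. Tpd52l1, a coiled-coil protein of the D52 family, rose from 6.35 to 7.03 (median 6.84) to 7.21 to 8.39 (median 7.90), a change of 1.14 (SE 0.179, adjusted p = 0.0171; by run 1.11 and 1.17). Spry1, Sprouty1, a brake on growth factor receptor signalling, was 7.94 to 8.71 (median 8.34) in wild type and 8.84 to 9.19 (median 9.09) in mutants. It rose by 0.72 (SE 0.116, adjusted p = 0.0205; by run 0.80 and 0.63), and the mutant arrays were tightly grouped. Abhd4, a lipid hydrolase, went from 8.90 to 9.90 (median 9.50) to 9.99 to 10.63 (median 10.14), a change of 0.82 (SE 0.14, adjusted p = 0.0328; by run 0.85 and 0.79), and a second probe set gave 0.44. The brightest Abhd4 probe set is of the type whose probes can bind other transcripts. Abhd4 was not called without a run block, with a random block, with equal run weights or with another variance model. Tpd52l1, Spry1 and Abhd4 were the higher genes with no overlap between the pools.

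Fermt3 and Nrip3 were higher with some overlap. Fermt3 codes for kindlin-3, which switches on integrins in blood cells and platelets, and it was 8.22 to 10.06 (median 8.88) in wild type and 9.91 to 11.04 (median 10.35) in mutants. The change was 1.42 (SE 0.257, adjusted p = 0.0439; by run 1.43 and 1.41), and wild-type replicate 9 was the array inside the mutant range. Nrip3, a nuclear receptor interacting protein, was 5.78 to 6.86 (median 6.11) against 6.79 to 7.78 (median 7.10), a change of 1.09 (SE 0.188, adjusted p = 0.0328; by run 1.25 and 0.93). Wild-type replicate 9 again reached the mutants. Fermt3 was not called when the mean of all probe sets of a gene was used, nor with equal run weights. Its brightest probe set is of a type that can be shared with related transcripts. Kindlin-3 is abundant in megakaryocytes, the platelet-forming cells. Of 6 megakaryocyte markers 4 were measured and 0 were called in limma (3 had an unadjusted p under 0.05), all 4 lay above 0 (median 0.45), and their mean level overlapped between the pools, at 7.84 to 8.33 in wild type and 8.20 to 8.98 in mutants. Over all genes 2.3% were higher at an unadjusted p under 0.05, and 51.7% lay above 0. The part of megakaryocytes in the Fermt3 value was not tested.

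Of the genes known from other work to need KLF1, 29 of 36 were measured, and 7 were lower (24.1%) and 0 higher, beside 0.113% lower over all genes. They were Kcnn4, Plek2, Icam4, Ermap, Pklr, Dmtn and Tfrc. The list was drawn up with results of these data known, so its count is no independent evidence. At an unadjusted p under 0.05, 13 members were lower and 1 higher, beside 1.07% and 2.3% of all genes. All mutant arrays lay below all wild-type arrays for 9 members, beside 0.129% of all genes, and the median was −0.16, beside 0.0049 over all genes. Cd24a, a surface glycoprotein of maturing erythroid cells, was next: 9.60 to 10.78 (median 10.05) in wild type and 7.67 to 9.36 (median 9.02) in mutants, with a change of −1.27 (SE 0.251, adjusted p = 0.0719). The probe set of that value is of the type whose probes can bind other transcripts. The 2 other probe sets of Cd24a gave −1.29 and −1.34, and the last was called when every probe set was tested (adjusted p = 0.0153). Of all 29, 10 lay above 0, beside 51.7% of all genes. Members without a probe set of their own included E2f2, Hbb-b1 and the globin chaperone Ahsp, and Hbb-b1 shared a probe set with other beta globins.

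No regulator of the erythroid program was called. Over all genes 0.161% were called and 51.7% lay above 0. At an unadjusted p under 0.05, 1.07% were lower and 2.3% higher. With so small a share of calls, 0 called in a list of this length is no result about its members. In limma 0 of 22 erythroid transcription factors were called (0 lower and 1 higher at an unadjusted p under 0.05, 13 above 0, median 0.09), and the smallest p were those of Lyl1 (0.40) and Nfe2 (0.53), with adjusted p = 1 for both. The G1 to S list had 0 of 24 measured genes (of 27) called (0 at an unadjusted p under 0.05 in either direction), 14 above 0 and a median of 0.08. E2f2, a gene known from other work to need KLF1, had no probe set paired with it alone. DNA replication and mitosis genes had 0 of 27 called (0 lower and 2 higher at an unadjusted p under 0.05), 24 above 0 and a median of 0.15. For the erythropoietin signalling and survival list the counts were 0 of 21 called (1 lower, 1 higher at an unadjusted p under 0.05) with a median of 0.07, led by Bcl2l1, the survival protein BCL-XL (0.66, adjusted p = 0.337). Organelle clearance genes had 0 of 16 called (0 lower, 1 higher at an unadjusted p under 0.05), led by Cited2 (1.02, adjusted p = 0.231). The antioxidant and heat shock lists had 0 of 16 and 0 of 17 called, and 0 at an unadjusted p under 0.05, with medians of 0.03 and 0.0027.

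The Krüppel-like factors, Klf1 included, had 0 of 14 measured genes called in limma, beside 0.161% of all genes. At an unadjusted p under 0.05, Klf1 was the 1 lower gene and 2 were higher, beside 1.07% and 2.3% of all genes. Klf15 gave 0.50 (adjusted p = 0.467). Megakaryocyte and platelet genes had 0 of 22 measured (of 29) called, 8 higher and 0 lower at an unadjusted p under 0.05 beside 2.3% higher over all genes, 16 above 0 and a median of 0.24. The platelet chemokine Ppbp gave 0.89 (5.96 to 7.10 against 6.30 to 8.50, adjusted p = 0.264) and von Willebrand factor, Vwf, 0.86 (4.81 to 5.88 against 5.73 to 7.33, adjusted p = 0.504), each with overlapping pools. Of the hematopoietic progenitor list 0 of 16 were called, 1 was higher at an unadjusted p under 0.05, and the homeobox gene Hhex (7.01 to 7.97 against 8.00 to 8.96, change 0.62, adjusted p = 0.122) did not overlap. Markers of other yolk sac cells had 0 called in limma, and their counts above 0 stand beside 51.7% of all genes: 19 of 23 endothelial genes lay above 0 (median 0.13, 1 higher at an unadjusted p under 0.05), 17 of 20 mesenchyme genes (median 0.16, 1 higher), 15 of 23 visceral endoderm genes (median 0.03, 0 in either direction) and 12 of 21 macrophage genes (median 0.0059, 2 higher). The mesenchyme median was −0.03 in titles 1 to 8 and 0.35 in titles 9 to 15, and that of visceral endoderm −0.10 and 0.21. The part of these cells in any called gene was not tested.

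**Figure D2:**
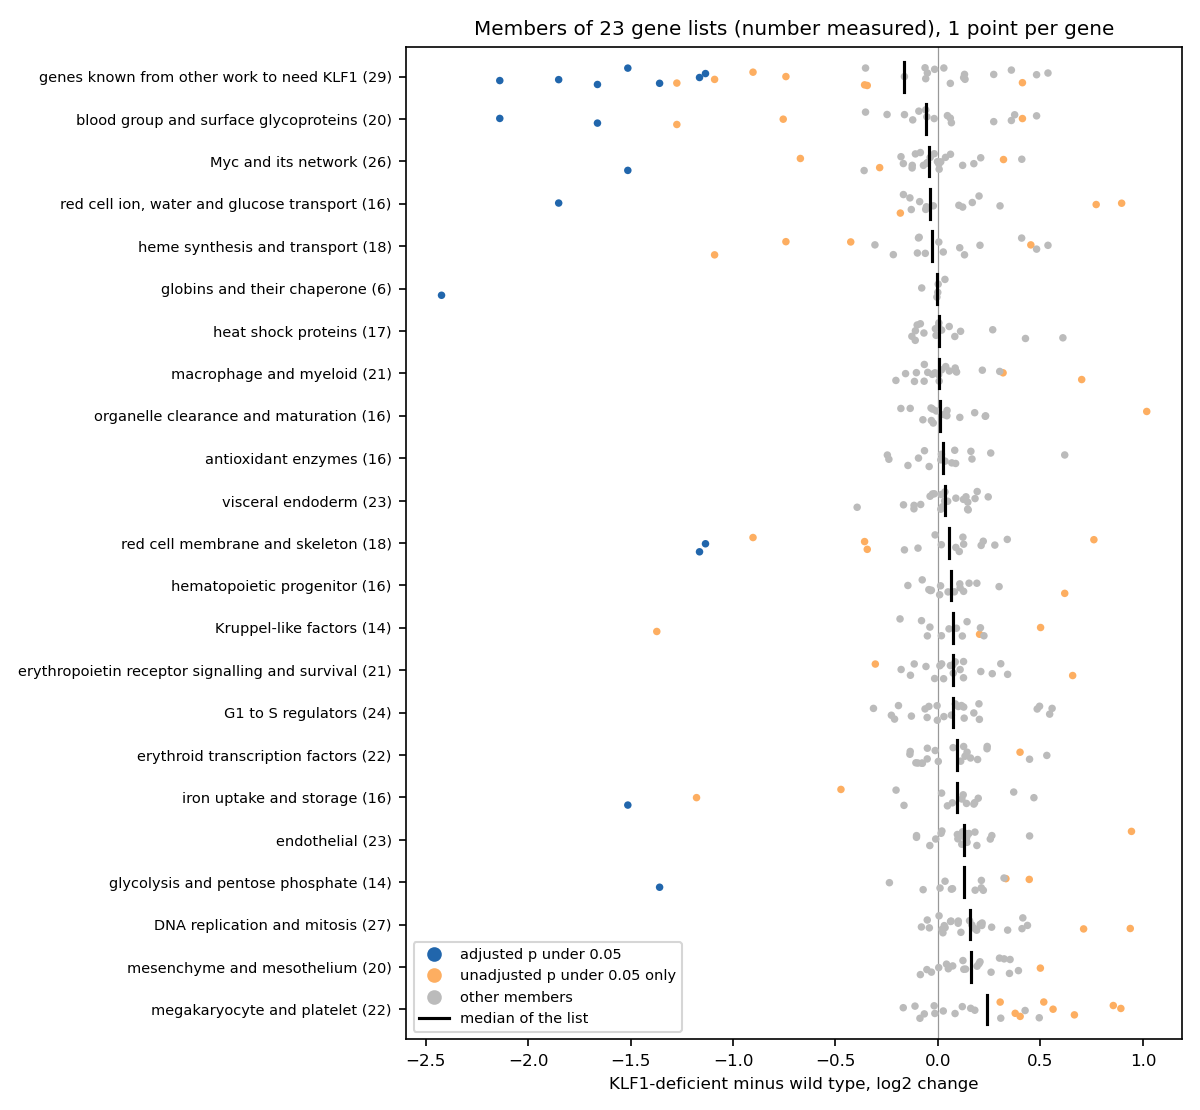
Log2 change, KLF1-deficient minus wild type, of the measured members of 23 gene lists, 1 point per gene, with black bars at list medians and blue points at adjusted p under 0.05. The 7 blue points of the known KLF1 genes run from −2.14 to −1.13, and the megakaryocyte list has the highest median, 0.24.

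The 2 title runs share no array, so each gives its own reading of the change. Over all 12393 genes the changes of the runs had a Pearson r of 0.208 and a Spearman rho of 0.0689, a description across genes that are not independent replicates. Of the 20 genes with the smallest p in titles 1 to 8, 8 were lower, and in titles 9 to 15 all 8 were lower again with an unadjusted p under 0.05, beside 0.88% of all genes, and with a median of −1.76. These were Plek2, Mgst3, Asb17, Adcy7, Kcnn4, Icam4, Ermap and Hbb-b2. The other 12 were higher, and in titles 9 to 15 all 12 lay above 0 (median 1.08) and 6 had an unadjusted p under 0.05, beside 2.85%. In the other direction, 14 of the 20 from titles 9 to 15 were lower, 13 of them lay below 0 in titles 1 to 8 (median −1.11), and 11 had an unadjusted p under 0.05, beside 0.662%. The remaining 6 were higher, and 3 of them lay above 0 in titles 1 to 8, 2 with an unadjusted p under 0.05, beside 1.37%.

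**Figure D3:**
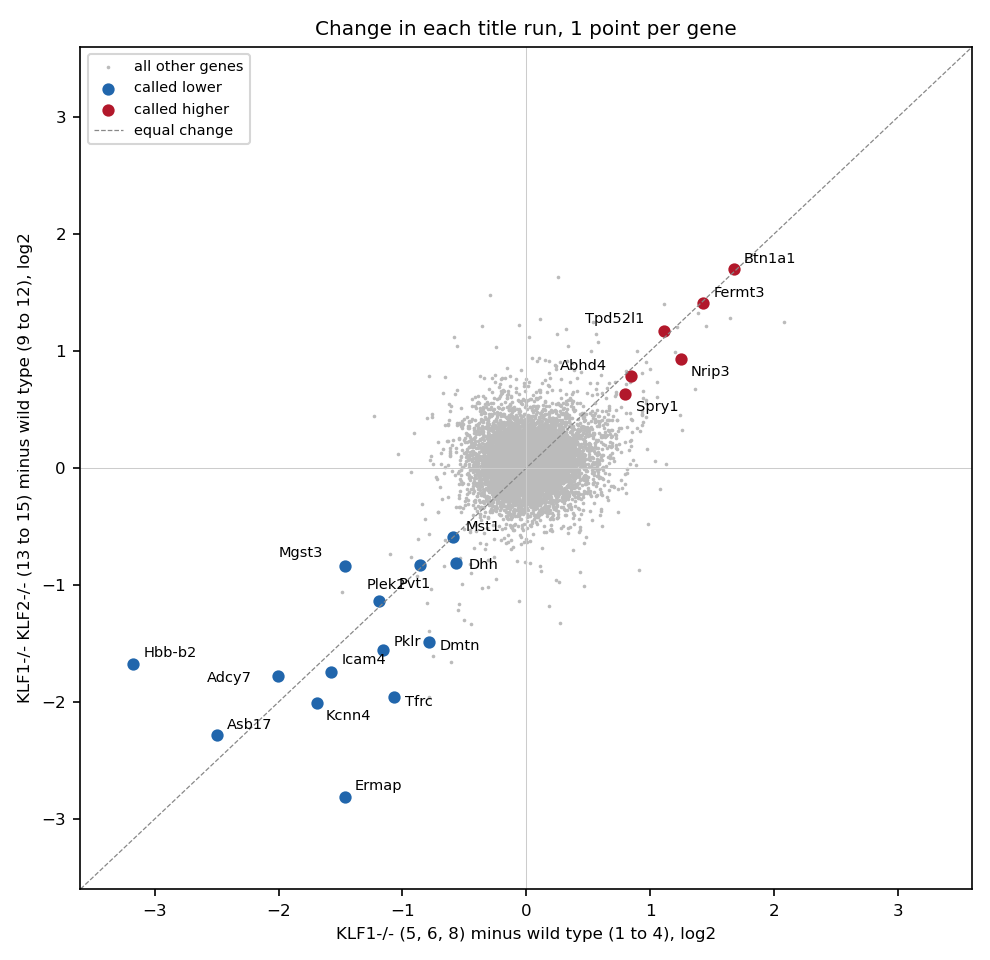
Log2 change of each gene in KLF1-/- minus its own wild type (horizontal) against KLF1-/- KLF2-/- minus its own wild type (vertical), 1 grey point per gene, with the called genes in blue and red and a dashed line at equal change. Asb17 (−2.50, −2.28) and Btn1a1 (1.67, 1.70) lie near the line, Ermap (−1.47, −2.81) below it and Hbb-b2 (−3.17, −1.67) above it.

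No gene differed between the runs in the size of its change after adjustment. The difference of changes gave 0 calls in limma (0%; 197 genes at an unadjusted p under 0.05, smallest adjusted p = 1), and in this term genotype and title run cannot be told apart. Of the 20 called genes 2 had an unadjusted p under 0.05 there. Ermap differed by −1.34 between its runs (SE 0.405, unadjusted p = 0.0054), and Dmtn by −0.70 (SE 0.31, unadjusted p = 0.0403). Their mutant means were close, for Ermap 7.95 in KLF1-/- and 8.11 in KLF1-/- KLF2-/-, while the wild-type means were 9.41 and 10.92. Wild-type replicates 9 to 12 thus read higher than 1 to 4 for Ermap by 1.51, and for Dmtn by 0.66 (7.12 and 7.78), with no overlap between these wild-type arrays for either gene. Across all genes the wild-type arrays of the runs gave 0 calls in limma (0%), with 928 at an unadjusted p under 0.05 and a smallest adjusted p of 0.549. For Kcnn4, Icam4, Plek2 and Asb17 the 95% interval of the difference of changes held 0 and ran from −1.08 to 0.44, from −1.06 to 0.72, from −0.54 to 0.64 and from −0.79 to 1.23, so differences of that size were not resolved. Within a run, titles 1 to 8 alone gave 0 calls in limma (252 genes at an unadjusted p under 0.05) and titles 9 to 15 alone 3, Kcnn4, Asb17 and Ermap.

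Single arrays set how far the calls reach. Kcnn4, Asb17, Adcy7, Plek2, Btn1a1, Icam4, Ermap and Pklr were called in all 14 fits that left out 1 array, with an adjusted p of at most 0.0139, and in every alternative on all 14 arrays in which they were tested. Dmtn was not called without KLF1-/- replicate 6 (adjusted p = 0.0534) or KLF1-/- KLF2-/- replicate 13 (0.0682) or 14 (0.0552), and Tpd52l1 not without replicate 5 (0.0601), 13 (0.074) or 14 (0.0552). Pvt1 was lost without mutant replicate 5, 6, 13 or 14 (adjusted p 0.051 to 0.0647) and Spry1 without those or wild-type replicate 3 or 11 (up to 0.074). The other 8 were called in 1 to 5 of these fits. Tfrc was called without wild-type replicate 1, 4, 9 or 12 or KLF1-/- replicate 6 and lost without each other array (adjusted p up to 0.114). Abhd4 held without wild-type replicate 2, 9 or 12 or mutant replicate 15, Mgst3 without wild-type replicate 4, 9 or 12, and Hbb-b2 without wild-type replicate 2 or 9 or mutant replicate 15. Nrip3 and Fermt3 held without wild-type replicate 9 or mutant replicate 15, Dhh without wild-type replicate 2 or KLF1-/- replicate 8, and Mst1 without wild-type replicate 10, with adjusted p up to 0.162 among these 7 genes elsewhere.

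**Figure D4:**
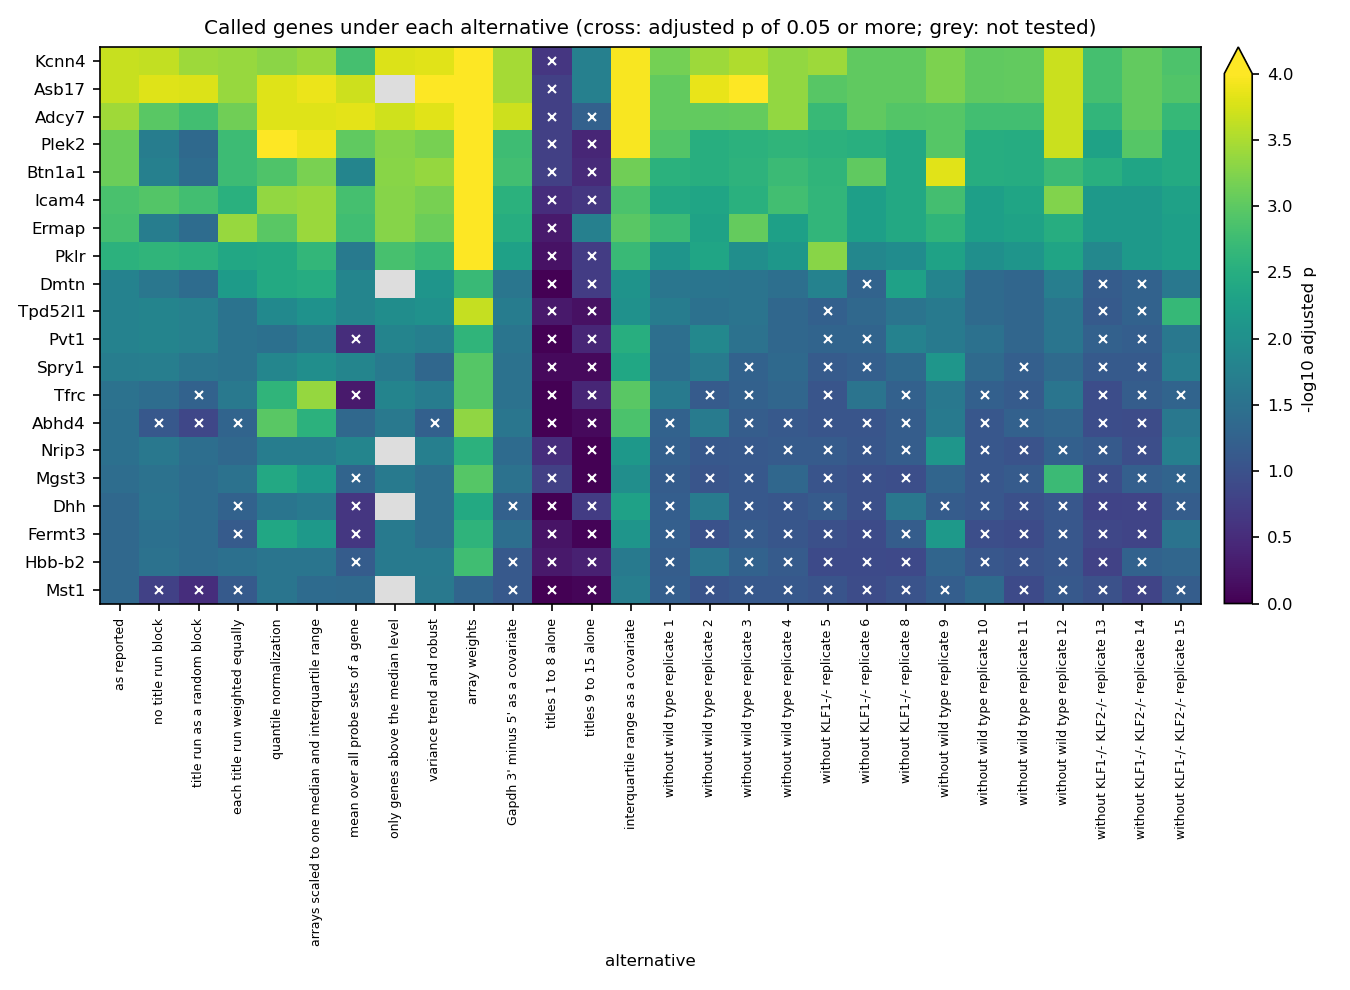
Strength of each call, as −log10 of the limma adjusted p, for the 20 called genes (rows, by p) under the reported setting, 13 alternatives on fixed arrays and 14 fits that leave out 1 array (columns), with white crosses where the adjusted p was 0.05 or more and grey where a gene was not tested. The top 8 rows, Kcnn4 to Pklr, all have a cross for titles 1 to 8 alone, 5 of them for titles 9 to 15 alone (not Kcnn4, Asb17 and Ermap), and none elsewhere.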

How the data were processed

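The authors deposited log2 expression values per probe set for 14 Affymetrix arrays, made with GCOS, RMA, affy and limma per the submitters' processing notes (versions not given in the sources used here). RMA compresses differences between weak signals, and a shift common to most genes is lost in normalization. The deposited log2 values were used unchanged, and the number of arrays sets the precision. Among 22690 probe sets were 64 controls, 20380 sets with 1 gene symbol, 691 with more than 1 and 1555 without any. Each of 12393 genes was read from its brightest probe set, without a filter. In limma 3.58.1 (R 4.3.3; lmFit and eBayes, two-sided) the pool and the title run were fitted together, with 11 residual degrees of freedom. Both runs hold 4 wild-type and 3 mutant arrays, so the block alters the error and not the estimate. All adjusted p are limma's, by Benjamini-Hochberg over all genes.

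Genes named were Klf1, Klf2 and Myc; up to 15 called genes per direction whose mutant arrays lay to one side of their own run's wild type; and up to 4 called members per list, or 2 by smallest p as values. Nrip3, Mgst3, Dhh and Fermt3, Add2, Cd24a, Slc4a1, Tmcc2, Pfkm, Aldoa, Slc25a37, the embryonic globins and other genes outside this rule were named after their values were seen. The pool, the 23 lists (455 members, 405 measured) and the tests were chosen with earlier results of these data known. Alternatives changed the block, scaling, probe sets, filter, variance model, weights, covariates and arrays; an interquartile range covariate was added after seeing the data. The fit was tested on simulated data. Sequences were matched by symbol. Figures used Python 3.11.15 and matplotlib 3.10.9.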

Additional observations from a re-analysis of the deposited data

Results flagged for a closer look

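Single arrays lay far from the rest of their pool for 3 genes. Among 64 groups examined (32 named genes, 8 wild-type and 6 KLF1-deficient arrays each), chance flags about 1 in 20. The 3 flags were near that share, so their number is no result about these genes. Btn1a1 read 8.14 on wild-type replicate 9, against 6.36 to 7.12 on the other wild-type arrays, and its log2 change was 1.82 without that array (adjusted p = 0.000153) beside 1.69 with it. Cd24a read 7.67 on KLF1-/- replicate 5, against 8.79 to 9.36 on the other mutant arrays, and its change was −1.01 without it (adjusted p = 0.051) beside −1.27. Cldn13, a claudin, read 5.72 on KLF1-/- replicate 6, against 6.14 to 6.26, and its change was −0.83 without it (adjusted p = 0.204) beside −0.90 (adjusted p = 0.0719).

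When every probe set was tested, 3 that the annotation pairs with no single gene were lower in the KLF1-deficient pool, and they enter no count of genes. Probe set 1449077_at had the largest change, −4.85 (12.65 to 13.42 in wild type, 7.64 to 8.74 in mutants, adjusted p = 2.26e-09). Probe set 1417184_s_at, paired with 4 adult beta globin genes at once, changed by −2.06 (11.20 to 12.43 against 8.83 to 11.08, adjusted p = 0.0404). Probe set 1448530_at changed by −1.19 (7.66 to 8.93 against 6.57 to 7.31, adjusted p = 0.0194). For all 3 the pools did not overlap.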

How the results depend on the processing

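The count of 20 called genes (14 lower, 6 higher) moved by over 1.5 times under 6 settings on fixed arrays. It also moved by over 1.5 times in several fits that left out 1 array, given below. There were 34 with quantile normalization (15 higher), 33 with arrays scaled to 1 median and interquartile range (13 higher), 92 with array weights (44 lower, 48 higher; weights 0.25 to 3.82), 56 with the added interquartile range covariate (32 and 24), 0 from titles 1 to 8 alone (0 and 0) and 3 from titles 9 to 15 alone (3 and 0). At adjusted p under 0.1 there were 30, 11 of them higher. All 20 genes were among the calls with both scalings, the weights and that covariate. Leaving out 1 array gave 8 to 27 calls, 7 to 13 lower and 1 to 14 higher: 8 without KLF1-/- KLF2-/- replicate 13 or 14, 10 without KLF1-/- replicate 5 or 6, 11 without wild-type replicate 3 or 11, and 13 without wild-type replicate 1 or 10. The higher calls numbered 14 without wild-type replicate 9, 10 without mutant replicate 15, and 1 to 3 without mutant replicate 5, 6, 13 or 14 or wild-type replicate 1, 3, 4, 10 or 11. Other settings gave 16 to 21 calls: no run block (19, with 18 of the 20), a random block (18), equal run weights (17), the mean of all probe sets (16), brighter genes (21), another variance model (20), the Gapdh covariate (18) and every probe set (21). Klf1 was called under 7 of 11 alternatives on all 14 arrays and in 0 of the fits that leave out 1 array. Klf2 turned to −0.13 in titles 1 to 8 alone. The cause of these moves was not tested. The difference of changes between runs kept 0 calls under quantile normalization, among brighter genes and without each array. No paired analysis was possible because the groups share no replicate numbers.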

Other observations

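Of the 26 genes whose pools did not overlap, 12 were not called, and apart from Klf1, Cd24a, Cldn13, Add2 and Hhex they were chosen after their values were seen. Phlda1, a pleckstrin homology protein, was 8.23 to 9.68 (median 8.68) in wild type and 9.79 to 10.84 (median 9.89) in mutants, a change of 1.26 (SE 0.248, adjusted p = 0.0719). Cited4, a transcriptional co-activator, was 5.99 to 6.56 against 6.57 to 7.66 (0.72, adjusted p = 0.119), and its relative Cited2, which overlapped, gave 1.02. Arrb1, beta-arrestin 1, which shuts off G protein-coupled receptors, was 5.42 to 7.23 (median 5.77) against 4.58 to 5.38 (median 4.83), a change of −1.13 (adjusted p = 0.119) that was −0.60 in titles 1 to 8 and −1.66 in titles 9 to 15. Anp32a (0.40, adjusted p = 0.216), Dnd1 (0.30, 0.297), Mta3 (0.57, 0.371) and Pon3 (0.44, 0.439) made up the rest. Dnd1 had the smallest change of these, with pools at 5.30 to 5.58 and 5.63 to 5.88.

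Besides Klf1, Cd24a, Phlda1 and Cldn13, 6 genes had an adjusted p between 0.05 and 0.1. Rai2 (0.56), Fam214b (0.83), Cntnap2, a contactin-associated protein (1.09), and Rgs10, which limits G protein signalling (0.87), were on the higher side. On the lower side were 1300017J02Rik (−0.65) and the HSP40 co-chaperone Dnaja4 (−0.97). Rgs10 was 8.69 to 9.64 (median 9.09) in wild type and 9.44 to 10.38 (median 10.04) in mutants, with overlap. Dnaja4 was 7.11 to 7.90 (median 7.65) against 6.18 to 7.37 (median 6.32), where 4 of 6 mutant arrays lay under 6.5 and KLF1-/- replicate 5 and KLF1-/- KLF2-/- replicate 15 reached the wild-type range.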
